A study of Mus musculus with 282 samples.

Results

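The 10 genes described here encode the receptors for tumour necrosis factor (TNF) and the proteins that carry its signal from the receptor to the IkB kinases. They were taken from the count tables by Ensembl identifier, and all 10 were found among the 55450 genes listed: Tnfrsf1a (ENSMUSG00000030341) and Tnfrsf1b (ENSMUSG00000028599), Tradd (ENSMUSG00000031887), Ripk1 (ENSMUSG00000021408), Traf2 (ENSMUSG00000026942), Birc2 (ENSMUSG00000057367), Birc3 (ENSMUSG00000032000), Ikbkb (ENSMUSG00000031537), Chuk (ENSMUSG00000025199) and Map3k7 (ENSMUSG00000028284). The cells were mouse bone marrow GMPs (granulocyte-monocyte progenitors), the precursors of neutrophils and monocytes, from male and female animals aged 12 to 19 weeks. Every cell, blank controls included, was homozygous for GFP-p65, a fluorescent fusion of the NfkB subunit p65, and heterozygous for H2BmCherry, a fluorescent histone; no cell without these reporters was measured here. After 8 h of culture under a confocal microscope, individual cells were picked with a micromanipulator and sequenced by Smart-Seq2, a full-length polyA RNA method without molecular identifiers. The authors' cell tables list 238 of 282 wells, 60 of them labelled blank and the rest given TNF, and assign each cell a class of NfkB response over time and a cell cycle phase. The sources used here do not give how the classes were drawn, the TNF dose, or whether the experiments used separate animals.

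Across an experiment that filled 1 plate (67 cells) and another that filled 2 plates (the remaining cells), TNF cells were classed as oscillatory (20 and 36 cells), transient (25 and 51), non-responsive (3 and 18), outlier (3 and 1), and, in the 2-plate experiment only, sustained (5) and unclear (16). Most blank cells were classed as non-responsive (13 and 34), and 5 blank cells of the 2-plate experiment were classed as oscillatory. Because cells of 1 experiment are not replicates, reads were summed over the cells of a class within each experiment. Tests of classes and of stimuli thus had n = 2 experiments. Phase tests used sums per experiment, stimulus and phase, so TNF and blank sums of the same experiment entered as separate units. Sums per plate, used as an alternative setting, likewise split the 2-plate experiment. A level given below as summed CPM is a gene's summed reads divided by all summed gene reads and expressed as CPM, the usual depth-scaled unit. The p-values measure the spread between these sums, which may be partly technical.

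As background, TNF binds TNFR1, the product of Tnfrsf1a, which most cell types carry, and TNFR2, the product of Tnfrsf1b, which is found mainly on blood and endothelial cells. TNFR1 recruits the adaptor TRADD and the kinase RIPK1, and TRAF2 brings in the ubiquitin ligases cIAP1 (Birc2) and cIAP2 (Birc3), while TNFR2 binds TRAF2 directly. The ubiquitin chains they build on RIPK1 recruit TAK1 (Map3k7) and the IkB kinases IKKalpha (Chuk) and IKKbeta (Ikbkb), which mark the IkB inhibitors for destruction and so free NfkB to enter the nucleus. Birc3 is a well-known NfkB target gene.

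The promoter windows of the genes whose levels differed most between classes, and of the only gene of the 10 whose window held a kappaB match, are shown from RefSeq (GRCm38.p6), each running from 250 bases before to 50 bases after a transcript start. The window of Birc3 lies at chr9:7873121-7873420 and that of Tnfrsf1b at chr4:145246821-145247120, both on the minus strand, and that of Map3k7 lies at chr4:31963857-31964156 on the plus strand. Capitals mark the match to the kappaB consensus.
Birc3: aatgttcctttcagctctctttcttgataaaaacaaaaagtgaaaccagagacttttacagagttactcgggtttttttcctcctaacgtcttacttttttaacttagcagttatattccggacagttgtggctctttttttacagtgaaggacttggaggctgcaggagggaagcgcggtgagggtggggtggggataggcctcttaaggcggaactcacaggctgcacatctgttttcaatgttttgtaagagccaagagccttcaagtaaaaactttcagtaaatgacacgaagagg
Tnfrsf1b: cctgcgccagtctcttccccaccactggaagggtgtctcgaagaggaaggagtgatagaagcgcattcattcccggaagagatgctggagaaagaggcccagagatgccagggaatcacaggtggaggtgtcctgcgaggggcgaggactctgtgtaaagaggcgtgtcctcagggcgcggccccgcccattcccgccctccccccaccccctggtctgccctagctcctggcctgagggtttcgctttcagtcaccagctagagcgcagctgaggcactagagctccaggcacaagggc
Map3k7: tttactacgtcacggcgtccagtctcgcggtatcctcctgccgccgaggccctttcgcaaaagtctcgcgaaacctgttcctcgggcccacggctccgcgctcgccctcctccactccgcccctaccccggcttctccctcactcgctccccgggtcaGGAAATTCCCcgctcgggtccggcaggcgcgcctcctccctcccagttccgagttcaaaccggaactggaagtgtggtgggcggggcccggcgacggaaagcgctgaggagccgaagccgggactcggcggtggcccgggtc
The search covered both strands, and windows were held for 8 of the 10 genes (10 windows in all). A match stood in 1 of these windows, shown in capitals in the Map3k7 window, and in 2779 of 32851 windows of all mouse genes (8.46%). The consensus searched was GGGRNNYYCC, where R stands for A or G, N for any base and Y for C or T. The Birc3 and Tnfrsf1b windows hold no match to it on either strand, and regions farther from the start were not searched.

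All 10 genes were read in most cells. A read of every one of the 10 was present in 71.3% of TNF cells and in 68.3% of blank cells, and the median cell had reads of all 10. The fewest cells without a read were counted for Ripk1 and Birc3 (2 each of 238), and the most for Birc2 (48) and Tradd (34). Reads per cell ran from 182301 to 3380416 with a median of 1339522, and 28 cells had fewer than 8000 detected genes, 24 of them TNF cells of the 2-plate experiment; the median low-complexity cell had reads of 7 of the 10 genes. Of the 17 cells without a read of Tnfrsf1a, 12 were of this kind. The share of spike-in reads in the 1-plate experiment was 0.127% (TNF) and 0.295% (blank), and in the 2-plate experiment it was 1.73% (TNF) and 1.33% (blank).

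The receptors behaved differently from each other. Tnfrsf1b, which encodes TNFR2, was highest in oscillatory TNF cells and was higher there than in non-responsive blank cells. Its summed level in oscillatory TNF cells was 370.9 CPM in the 1-plate and 281.1 CPM in the 2-plate experiment, against 162.6 and 126.3 CPM in non-responsive blank cells. The oscillatory sums lay above the blank sums in both experiments. The difference was 2.36-fold (95% interval 1.85 to 3.005, log2 fold change 1.24 ± 0.15 SE). It passed the edgeR quasi-likelihood test with Benjamini-Hochberg adjustment over all genes (adjusted p = 0.0175). The same test called 2 of the 10 genes, Tnfrsf1b and Birc3, and 2.35% of the 16586 genes tested. At an unadjusted p under 0.05 it held 4 of the 10 (these and Ripk1 and Ikbkb) against 16.2% of all genes. Among single cells, Tnfrsf1b spanned from 51.2 to 1520 CPM with a median of 211 in 20 oscillatory TNF cells of the 1-plate experiment, against 3.71 to 967 CPM with a median of 106.2 in 13 blank cells of the non-responsive class. In the 2-plate experiment the medians were 195 CPM in 36 oscillatory TNF cells and 83.3 CPM in 34 non-responsive blank cells. The ranges of single cells overlapped widely.

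A few cells carried much of the Tnfrsf1b reads. A single non-responsive blank cell held 53.6% of the reads of its sum in the 1-plate experiment, and the highest oscillatory TNF cell held 24.3%. Without the highest cell of each sum, the levels were 306 and 247 CPM in oscillatory TNF cells and 82.9 and 100.5 CPM in non-responsive blank cells, so the order was the same. With the mean of log2(CPM + 1) over cells in place of sums, the difference between oscillatory TNF and non-responsive blank cells was 1.41 on the log2 scale and missed the threshold (limma, adjusted p = 0.0713). The call was also lost with phase as a term, an alternative chosen after seeing the data (log2 fold change 1.19, adjusted p = 0.112), but held in G2M cells alone, chosen likewise (1.53, adjusted p = 0.0228). Scaling by spike-in factors (log2 fold change 1.84 ± 1.05 SE) and leaving out the experiment term (1.23 ± 0.23 SE, edgeR adjusted p = 0.123) also ended it.

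Between transient TNF and non-responsive blank cells, Tnfrsf1b was not called. Summed levels were 163.8 and 151.9 CPM in transient TNF cells, against 162.6 and 126.3 CPM in non-responsive blank cells (log2 fold change 0.14 ± 0.14 SE, 95% interval -0.20 to 0.49, edgeR adjusted p = 0.859). Without the highest cell of each sum, the levels were 142.3 and 138.2 CPM in transient TNF cells, against 82.9 and 100.5 CPM in non-responsive blank cells. The log2 fold change depended on the cells used, at 0.77 ± 0.17 SE in G2M cells alone, chosen after seeing the data (edgeR adjusted p = 0.214), and -0.04 ± 0.15 SE without Plate1. Oscillatory TNF cells exceeded transient TNF cells 2.13-fold (95% interval 1.67 to 2.72; log2 fold change 1.09 ± 0.14 SE), with higher sums in both experiments. That difference did not pass edgeR's adjusted threshold (adjusted p = 0.0613). It passed with DESeq2 (adjusted p = 1.33e-07), which called 3.8% of all genes, and with a stricter low-count filter in edgeR (adjusted p = 0.0146), which called 3.1%. On each of the 3 plates the oscillatory TNF sum was above the transient TNF sum, at 370.9, 271.6 and 298.8 CPM against 163.8, 163.8 and 139.4 CPM. Over all TNF cells the Tnfrsf1b level was 247 and 215 CPM, against 145.3 and 138.6 CPM in all blank cells (log2 fold change 0.72 ± 0.14 SE, edgeR adjusted p = 0.148).

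Tnfrsf1a, which encodes TNFR1, was called in none of the comparisons of response classes or stimuli. Its summed levels were 160.97 and 153.7 CPM in oscillatory TNF cells, 137.7 and 118.7 CPM in transient TNF cells, 135.9 and 129.3 CPM in non-responsive TNF cells, and 135.5 and 140.2 CPM in non-responsive blank cells. In TNF against blank cells as a whole, the log2 fold change was 0.02 ± 0.14 SE (95% interval -0.33 to 0.38, edgeR adjusted p = 0.988). Between oscillatory and transient TNF cells the log2 fold change was 0.36 ± 0.14 SE (unadjusted p = 0.0372, edgeR adjusted p = 0.448). Within the 2-plate experiment, Tnfrsf1a in oscillatory TNF cells summed to 175.9 CPM on Plate1 and 112.06 CPM on Plate2, while non-responsive blank cells had 147.8 CPM on Plate1 and 133.01 CPM on Plate2. The oscillatory sums thus differed more between the plates than between the classes just given. Outside the tested classes, Tnfrsf1a stood at 41.7 CPM in 3 outlier TNF cells of the 1-plate experiment. A single outlier TNF cell of the other experiment had 25.5 CPM, and 16 unclear TNF cells there summed to 175.7 CPM.

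**Figure D1:**
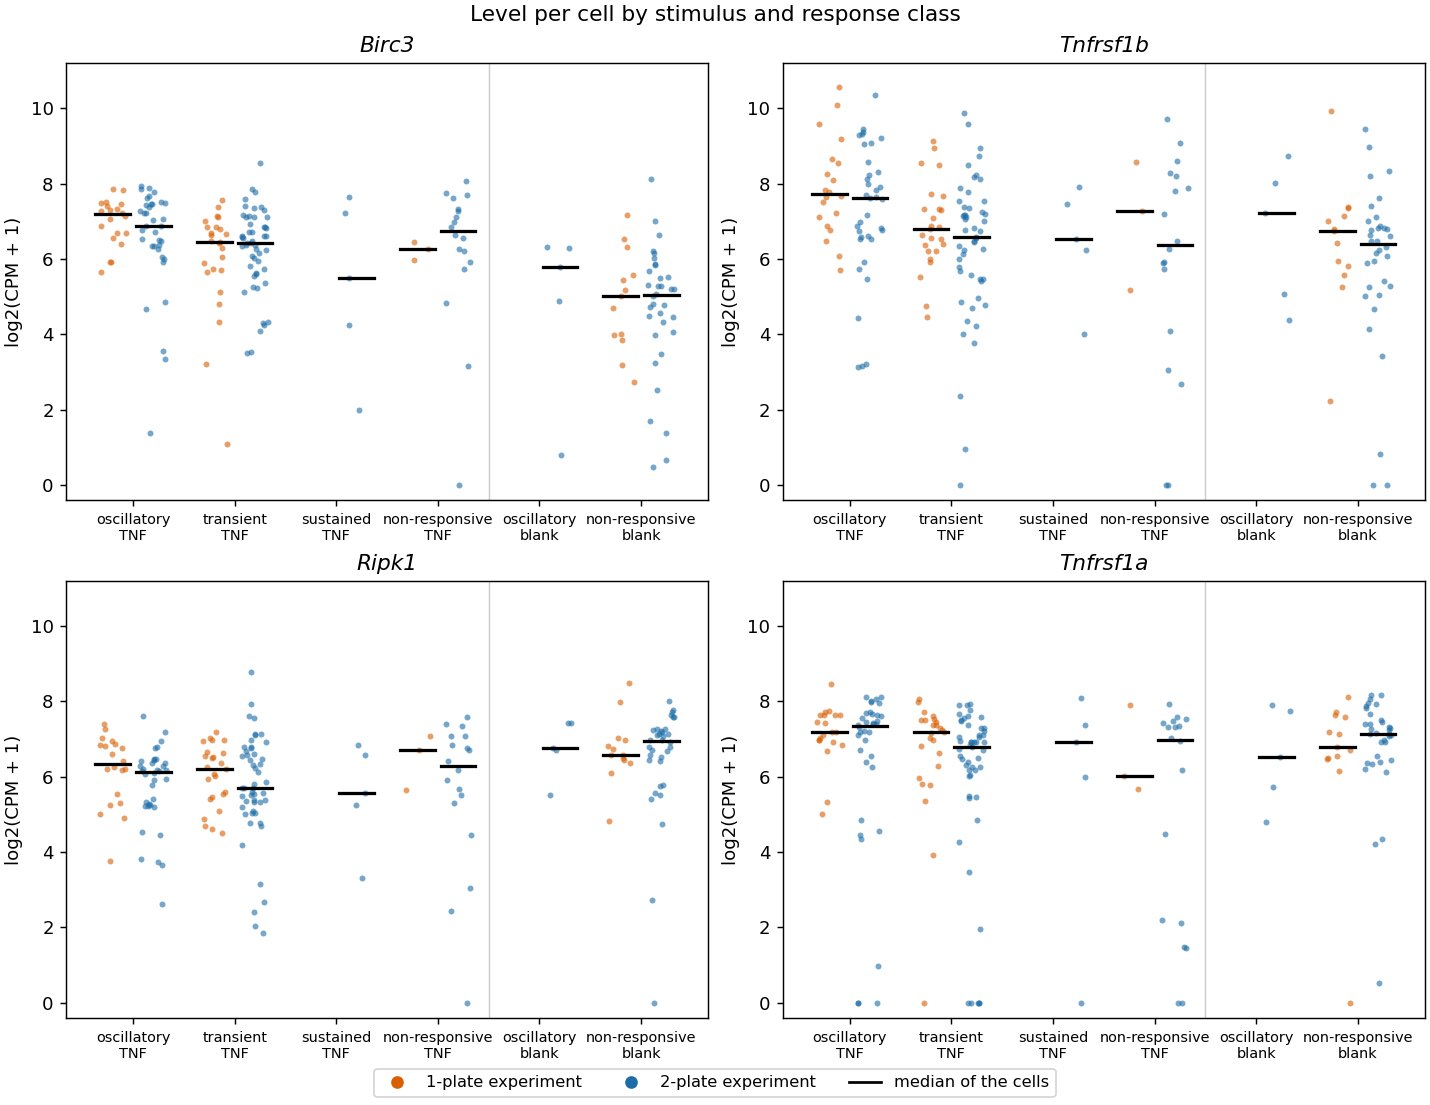
Level per cell as log2(CPM + 1) of Birc3, Tnfrsf1b, Ripk1 and Tnfrsf1a (vertical axes) by response class and stimulus (horizontal axes); points are cells, coloured by experiment, black lines are medians, and the grey line divides TNF from blank cells (outlier, unclear and transient blank cells are not drawn). Median Birc3 was 145.2 and 116.6 CPM in oscillatory TNF cells against 31.3 and 32.1 CPM in non-responsive blank cells, while median Tnfrsf1a differed less between classes.

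Among the adaptors, Ripk1, the kinase that scaffolds ubiquitin chains at TNFR1, had lower sums in the oscillatory, transient and non-responsive TNF classes than in blank cells, and no difference passed edgeR's adjusted threshold. Its summed level was 78.2 and 74.9 CPM in all TNF cells, against 133.7 and 124.1 CPM in all blank cells. The TNF sums lay below the blank sums in both experiments, a fold of 0.601 (95% interval 0.465 to 0.778; log2 fold change -0.73 ± 0.15 SE; unadjusted p = 0.00323, edgeR adjusted p = 0.169). By class, Ripk1 had 81.2 and 71.1 CPM in oscillatory, 75.9 and 77.6 CPM in transient and 88.3 and 81.2 CPM in non-responsive TNF cells, against 136.4 and 126.6 CPM in non-responsive blank cells. The edgeR adjusted p was 0.0806 for oscillatory, 0.221 for transient and 0.219 for non-responsive TNF cells against that blank class. DESeq2 called Ripk1 for all TNF against all blank cells (adjusted p = 0.0068), for oscillatory TNF cells (adjusted p = 0.0113) and for transient TNF cells (adjusted p = 0.016). In oscillatory TNF cells it was also called with the stricter low-count filter (adjusted p = 0.0308). DESeq2 called 7.75% and the stricter filter 8.75% of all genes tested in oscillatory TNF against non-responsive blank cells. Between oscillatory and transient TNF cells the log2 fold change of Ripk1 was 0.05 ± 0.15 SE (95% interval -0.32 to 0.42).

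The median single cell gave a smaller Ripk1 difference in the 1-plate than in the 2-plate experiment. Medians were 76.3 and 59.5 CPM in all TNF cells, against 101.9 and 115.05 CPM in all blank cells. Within the 1-plate experiment, 3 blank cells in G1 summed to 254 CPM, and in G2M the sums were 73.9 CPM in oscillatory TNF cells and 80.98 CPM in non-responsive blank cells. The G2M sums of the 2-plate experiment were 64.2 CPM in oscillatory TNF cells and 127.4 CPM in non-responsive blank cells. Restricting the fit to G2M cells, an alternative chosen after seeing the data, gave a log2 fold change of -0.55 for oscillatory TNF against non-responsive blank cells (edgeR adjusted p = 0.375).

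Tradd, which links TNFR1 to RIPK1 and TRAF2, summed to 26.5 and 31.1 CPM in oscillatory, 34.8 and 32.2 CPM in transient and 29.4 and 31.7 CPM in non-responsive TNF cells, against 21.7 and 34.1 CPM in non-responsive blank cells. The classes overlapped, and the log2 fold changes against non-responsive blank cells ran from 0.13 to 0.30 with edgeR adjusted p-values of 0.826 or more. Tradd was read in 49 of 56 oscillatory, 68 of 76 transient and 16 of 21 non-responsive TNF cells, against 40 of 47 non-responsive blank cells. With sums of 2 experiments its values could not resolve a change of that size, since its 95% interval for oscillatory TNF cells ran from -0.50 to 0.76 on the log2 scale.

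Traf2, the adaptor that both receptors use, had higher sums in oscillatory and transient TNF cells than in blank cells of the same experiment, without passing the adjusted threshold. Summed levels were 64.95 and 82.9 CPM in oscillatory, 78.2 and 89.2 CPM in transient and 57.1 and 121.8 CPM in non-responsive TNF cells, against 58.8 and 60.3 CPM in non-responsive blank cells. The log2 fold change was 0.49 ± 0.17 SE for transient TNF cells (unadjusted p = 0.0247, edgeR adjusted p = 0.572) and 0.37 ± 0.17 SE for oscillatory TNF cells (edgeR adjusted p = 0.348). Oscillatory blank cells, present in 1 experiment, had 102.8 CPM.

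Of the ubiquitin ligases, Birc3 (cIAP2) showed the largest differences of the 10 genes in each comparison of TNF with blank cells. Its summed level was 106.8 and 118.8 CPM in all TNF cells, against 47.5 and 39.1 CPM in all blank cells. The TNF sums lay above the blank sums in both experiments, a 2.65-fold difference (95% interval 1.90 to 3.71; log2 fold change 1.41 ± 0.19 SE; unadjusted p = 0.000473) that missed the adjusted threshold (edgeR adjusted p = 0.0746). This comparison called 0 of the 10 genes and 0.446% of the 15479 genes tested. At an unadjusted p under 0.05 it held 3 of the 10 (Birc3, Tnfrsf1b and Ripk1) against 10.9% of all genes. DESeq2 called these 3 as well, and 4.36% of all genes. The lower quartile of single TNF cells, 60.7 CPM in the 1-plate and 57.5 CPM in the 2-plate experiment, lay above the upper quartile of single blank cells, 50.5 and 54.7 CPM.

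Separated by class, Birc3 was called by edgeR in oscillatory TNF cells, while transient and non-responsive TNF cells also had higher sums than blank cells. It summed to 137.997 and 131.7 CPM in oscillatory and 85.8 and 100.2 CPM in transient TNF cells, against 49.2 and 37.7 CPM in non-responsive blank cells. Non-responsive TNF cells had 75.6 and 131.7 CPM, the latter level with oscillatory TNF cells of the 2-plate experiment. In that experiment, 16 unclear TNF cells had 153.6 CPM and 5 sustained TNF cells 65.6 CPM. The oscillatory sums were 3.26-fold above the blank sums (95% interval 2.32 to 4.58; log2 fold change 1.70 ± 0.20 SE; edgeR adjusted p = 0.0175), and the call held in G2M cells alone (adjusted p = 0.0319) and with phase as a term (adjusted p = 0.000372), both alternatives chosen after seeing the data. Transient TNF cells were 2.16-fold above blank cells (95% interval 1.54 to 3.03; log2 fold change 1.11 ± 0.20 SE; unadjusted p = 0.00122) and missed the threshold (edgeR adjusted p = 0.177). That comparison called 0 of the 10 genes and 0.133% of 16586 genes. An unadjusted p under 0.05 was found for 3 of the 10 (Birc3, Ripk1 and Traf2) and 7.48% of all genes. DESeq2 called 2 of the 10 (Ripk1 and Birc3) and 1.93% of all genes. Oscillatory TNF cells had 1.51 times the Birc3 level of transient TNF cells (95% interval 1.08 to 2.10; log2 fold change 0.59 ± 0.20 SE; unadjusted p = 0.0223, edgeR adjusted p = 0.368). Oscillatory against transient TNF cells called 0 of the 10 genes and 0.199% of all genes, while 4 of the 10 (Tnfrsf1b, Birc3, Ikbkb and Tnfrsf1a) and 10.1% of all genes had an unadjusted p under 0.05.

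The average single cell showed the same order of Birc3 levels. Mean log2(CPM + 1) was 6.98 ± 0.63 (SD, n = 20 cells) in oscillatory and 6.00 ± 1.43 (n = 25) in transient TNF cells of the 1-plate experiment, against 4.90 ± 1.32 (n = 13) in non-responsive blank cells. The mean in the 2-plate experiment was 6.53 ± 1.41 (n = 36) in oscillatory and 6.26 ± 1.10 (n = 51) in transient TNF cells, against 4.67 ± 1.72 (n = 34) in non-responsive blank cells. On these cell means the oscillatory difference from blank cells was 1.97 on the log2 scale (limma adjusted p = 0.0606). The edgeR call of Birc3 was also lost with spike-in factors (log2 fold change 2.34 ± 1.07 SE, adjusted p = 0.763) and without the experiment term (1.71 ± 0.27 SE, adjusted p = 0.0809). Plate by plate, oscillatory TNF cells summed to 137.997, 124.03 and 146.1 CPM, and non-responsive blank cells to 49.2, 24.3 and 50.3 CPM, in the 1-plate experiment, Plate1 and Plate2. The oscillatory sum was thus the higher on each plate.

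A joint test over the sums of TNF cells of both responding classes and of non-responsive blank cells called 2 of the 10 genes, Tnfrsf1b (edgeR adjusted p = 0.03) and Birc3 (edgeR adjusted p = 0.0387), and 1.37% of all genes. Neither call held without Plate1 or without Plate2 of the 2-plate experiment, where the edgeR adjusted p without Plate1 was 0.05003 for Tnfrsf1b and 0.0807 for Birc3, and without Plate2 it was 0.0934 for each.

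Birc2 (cIAP1), which lies next to Birc3 on chromosome 9 and is similar to it in sequence, had fewer reads. How the authors' counting treated reads shared by the pair is not known, so the values of Birc2, and in this respect those of Birc3, are uncertain. Birc2 summed to 32.5 and 15.9 CPM in oscillatory, 29.3 and 26.7 CPM in transient and 47.9 and 30.2 CPM in non-responsive TNF cells, against 12.7 and 21.5 CPM in non-responsive blank cells. Higher TNF sums stood in the 1-plate experiment in all 3 classes, whereas in the 2-plate experiment the oscillatory sum was below the blank sum. The standard errors were wide, at 0.42 to 0.45 on the log2 scale, and no comparison passed edgeR's adjusted threshold. Birc2 was read in 47 of 56 oscillatory and 62 of 76 transient TNF cells, against 35 of 47 non-responsive blank cells (83.9%, 95% exact interval 71.7% to 92.4%; 81.6%, 71.03% to 89.5%; and 74.5%, 59.7% to 86.1%, for counting error only).

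**Figure D2:**
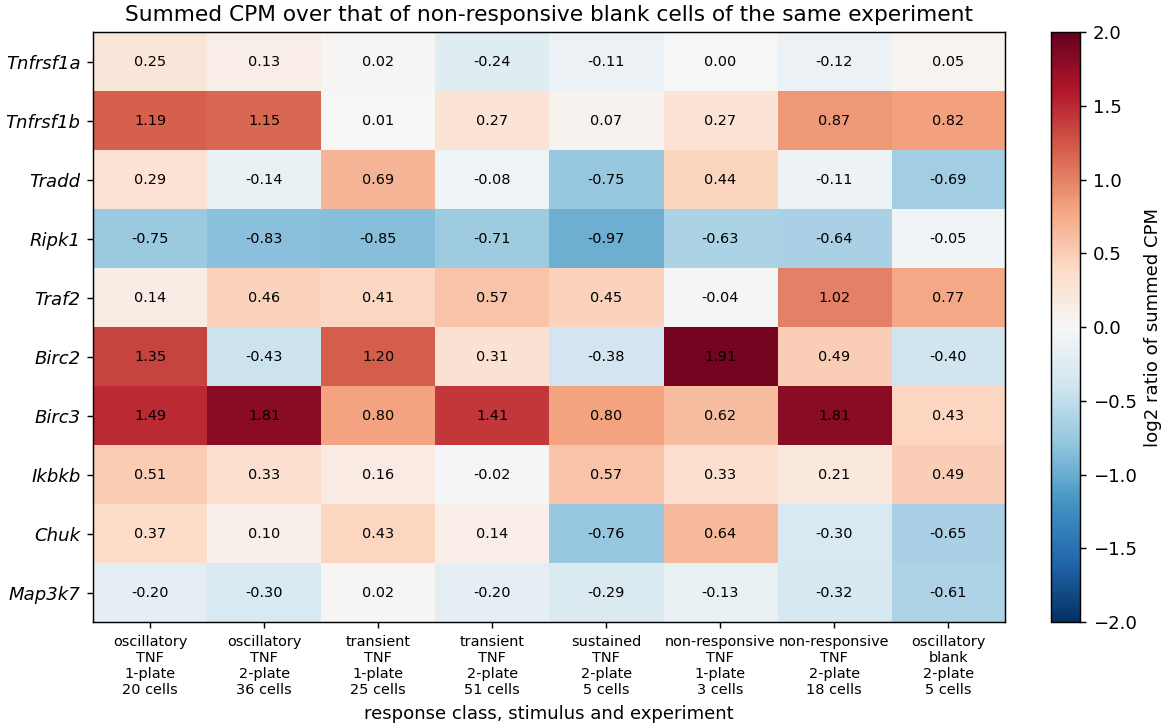
Log2 ratio of the summed CPM of each of the 10 genes (rows) in 5 groups of class and stimulus by experiment (columns, with the number of cells; outlier and unclear cells are not drawn) over that of non-responsive blank cells of the same experiment; red is higher and blue is lower, and each cell prints its ratio. Birc3 was 0.62 to 1.81 and Ripk1 was -0.97 to -0.63 in the TNF columns drawn, whereas Birc2 ran from -0.43 to 1.91 in them.

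None of the 3 kinases downstream of the receptor complex passed edgeR's adjusted threshold between classes. Ikbkb, the IkB kinase subunit that the TNF response depends on most, summed to 100.2 and 77.7 CPM in oscillatory and 78.5 and 61.1 CPM in transient TNF cells, against 70.3 and 61.8 CPM in non-responsive blank cells. Oscillatory TNF cells were above these transient and blank cells within each experiment (log2 fold change against blank cells 0.48 ± 0.15 SE, unadjusted p = 0.0182, edgeR adjusted p = 0.199; against transient TNF cells 0.41 ± 0.15 SE, edgeR adjusted p = 0.434). The same gene had 88.3 and 71.3 CPM in non-responsive TNF cells.

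Chuk, the partner subunit IKKalpha, summed to 84.4 and 67.4 CPM in oscillatory, 88.5 and 69.1 CPM in transient and 102.2 and 51.01 CPM in non-responsive TNF cells, against 65.5 and 62.9 CPM in non-responsive blank cells. Map3k7, which encodes the kinase TAK1 that activates the IkB kinases, summed to 86.4 and 62.4 CPM in oscillatory, 100.4 and 67.03 CPM in transient and 90.5 and 61.6 CPM in non-responsive TNF cells, against 99.05 and 77.1 CPM in non-responsive blank cells. For both genes the absolute log2 fold changes against that blank class were at most 0.29, and edgeR adjusted p-values were 0.454 or more. Both had a lower level in the 2-plate than in the 1-plate experiment in every one of these classes.

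Read as a list, 8 of the 10 genes had a positive and 2 a negative log2 fold change in TNF against blank cells, with a median of 0.25 beside 0.03 over all genes tested. The counts were also 8 and 2 for oscillatory TNF against non-responsive blank cells (median 0.33 beside 0.02). For transient TNF cells they were 7 and 3 (median 0.22 beside 0.03), and for oscillatory against transient TNF cells 6 and 4 (median 0.03 beside -0.04). The comparisons with non-responsive blank cells share those blank cells.

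**Figure D3:**
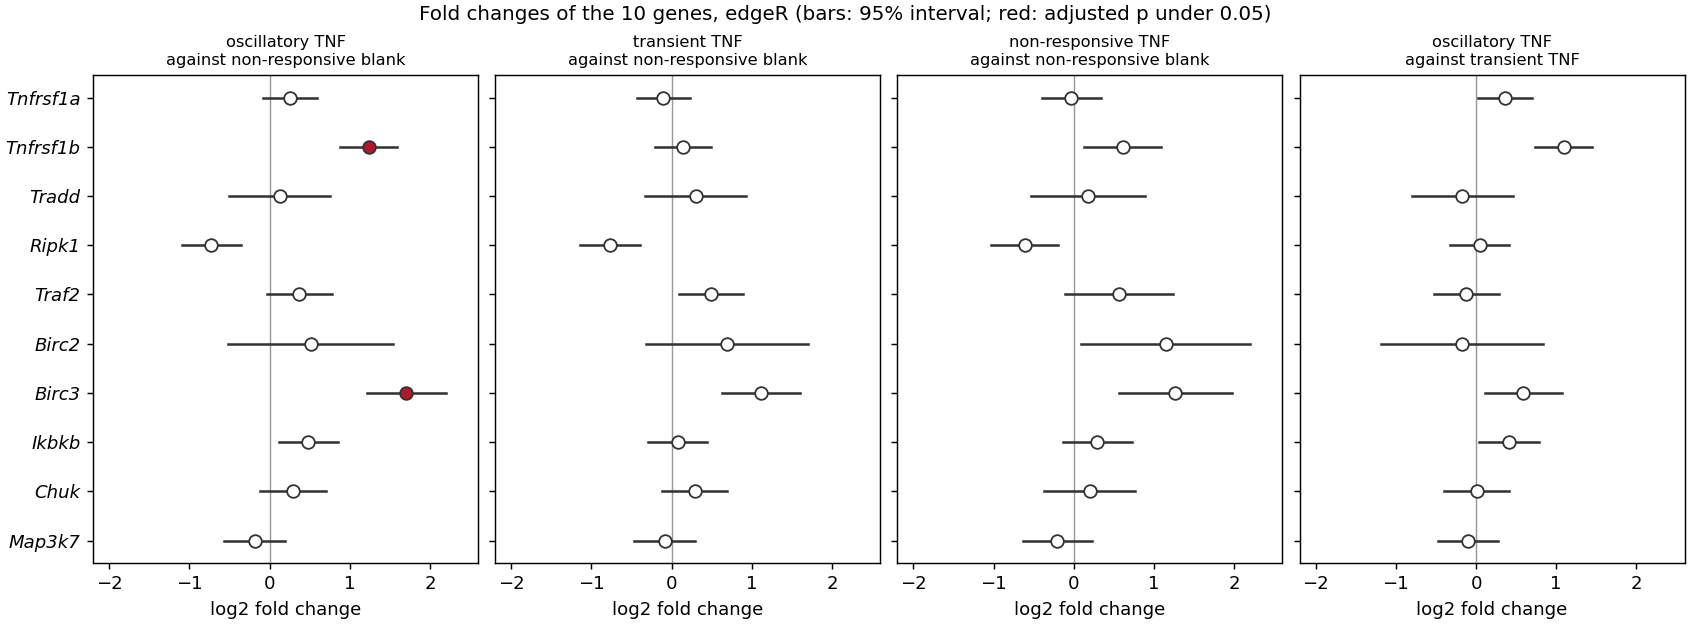
Log2 fold changes (horizontal axes) of the 10 genes (rows) in 4 comparisons, from edgeR fits on sums of 2 experiments; bars are 95% intervals and red points passed an adjusted p of 0.05. Tnfrsf1b (1.24) and Birc3 (1.70) passed in oscillatory TNF against non-responsive blank cells, and no gene of the 10 passed in the other panels.

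Cells given TNF but classed as non-responsive had reads of the receptors in most cases, and no gene of the 10 was called between them and responding TNF cells. A read of both receptors was present in 18 of 21 non-responsive TNF cells, 53 of 56 oscillatory and 70 of 76 transient TNF cells, and 44 of 47 non-responsive blank cells; a read of at least 1 receptor was present in 20, 56, 75 and 47 of these cells. With 5 reads or more required, Tnfrsf1a was present in 15 of 21 non-responsive TNF cells and 45 of 47 non-responsive blank cells. Among oscillatory and transient TNF cells these counts were 52 of 56 and 69 of 76. For Tnfrsf1b the counts were 18, 44, 55 and 74 in the same order. The lower quartile of Tnfrsf1a was 3.62 CPM in non-responsive TNF cells and 88.6 CPM in non-responsive blank cells. Of the 21 non-responsive TNF cells, 6 had fewer than 8000 detected genes. Tnfrsf1b summed to 197 and 230 CPM in non-responsive TNF cells, against 162.6 and 126.3 CPM in non-responsive blank cells. With both experiments together, the median cell had 88.2 CPM in this TNF class and 87.5 CPM in this blank class. The higher Tnfrsf1b sums were thus not seen in the median cell. Without the highest cell of each class, the joint sums were 183.6 CPM (TNF) and 111.1 CPM (blank). Birc3 summed to 75.6 and 131.7 CPM in the non-responsive TNF cells, against 49.2 and 37.7 CPM in the blank ones.

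Against non-responsive blank cells, non-responsive TNF cells had log2 fold changes of 1.27 ± 0.31 SE for Birc3 (edgeR adjusted p = 0.15), 0.61 ± 0.21 SE for Tnfrsf1b (0.267), -0.61 ± 0.18 SE for Ripk1 (0.219) and 1.14 ± 0.45 SE for Birc2 (0.321). These 4 genes had an unadjusted p under 0.05, beside 14.1% of the 16878 genes tested. After adjustment edgeR called 0 of the 10 genes and 0.492% of all genes, and DESeq2 called 2 of the 10, Tnfrsf1b and Birc3, and 5.31% of all genes. The Birc3 log2 difference was 0.59 in the 1-plate experiment, where the class held 3 cells, and 1.88 in the 2-plate experiment, where it held 18.

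Against responding TNF cells, the average of the oscillatory and transient classes, non-responsive TNF cells showed no called difference in any of the 10 genes. The log2 fold changes were -0.11 ± 0.14 SE for Tnfrsf1a (95% interval -0.43 to 0.21), -0.08 ± 0.18 SE for Tnfrsf1b (-0.49 to 0.33), -0.12 ± 0.26 SE for Birc3 (-0.73 to 0.48) and 0.13 ± 0.15 SE for Ripk1 (-0.22 to 0.49). Birc2 had the largest of the 10, at 0.56 ± 0.38 SE. This comparison called 0 of the 10 and 0% of 16878 genes in edgeR. At an unadjusted p under 0.05 it held 0 of the 10 and 10.9% of all genes, and DESeq2 also called 0 of the 10, with 1.94% of all genes. The intervals leave room for differences in either direction, and the size of the smallest class, 3 cells, limits them. On Plate2 the median Tnfrsf1a level was 3.62 CPM in 11 non-responsive TNF cells and 79.4 CPM in 14 oscillatory TNF cells, whereas on Plate1 it was 177.99 CPM in 7 non-responsive and 172.2 CPM in 22 oscillatory TNF cells. Low-complexity cells stood mostly among TNF cells of the 2-plate experiment. The median TNF cell there had 9333.5 detected genes on Plate2 and 9944 on Plate1. Traf2 was read in 60 of 68 TNF cells on Plate2 and in 59 of 59 on Plate1. All 9 cells without a read of Traf2 had fewer than 8000 detected genes. The part of low-complexity cells in the plate difference of Tnfrsf1a was not tested.

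Classes present in the 2-plate experiment alone had no replicate and were not tested. The 5 sustained TNF cells had 132.5 CPM of Tnfrsf1b, 65.6 CPM of Birc3 and 64.5 CPM of Ripk1. The 5 blank cells classed as oscillatory without TNF had 222 CPM of Tnfrsf1b, of which 1 cell held 62.8%, 50.9 CPM of Birc3 and 121.999 CPM of Ripk1. The 16 unclear TNF cells had 265 CPM of Tnfrsf1b, 153.6 CPM of Birc3 and 72.7 CPM of Ripk1, against 126.3, 37.7 and 126.6 CPM of the same genes in non-responsive blank cells of that experiment. Birc3 in oscillatory blank cells thus lay nearer to the non-responsive blank level than to that of oscillatory TNF cells in the same experiment (131.7 CPM).

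By cell cycle phase, Tnfrsf1b was the only gene of the 10 whose summed reads passed the test. It summed to 400.4 CPM in G1, 169.8 CPM in S and 176.5 CPM in G2M in the 1-plate experiment, and to 282, 113.6 and 171.5 CPM in the same order in the 2-plate experiment. With experiment and stimulus as terms, the log2 fold change was -1.21 ± 0.22 SE for G2M against G1 (edgeR adjusted p = 0.0242) and -1.40 ± 0.22 SE for S against G1 (adjusted p = 0.012). These tests called 0.987% and 1.92% of the 12662 genes tested. At an unadjusted p under 0.05, G2M against G1 held 1 of the 10 (Tnfrsf1b) against 10.1% of all genes. S against G1 held 4 of the 10 against 14.9% of all genes. These were Tnfrsf1b, Birc3 (log2 fold change -0.76), Ripk1 (-0.82) and Tnfrsf1a (-0.59). In TNF cells of the 1-plate experiment the median cell differed in Tnfrsf1b too, at 306 CPM in G1, 125.2 CPM in S and 125.7 CPM in G2M. In TNF cells of the 2-plate experiment the medians were 94.8, 87.1 and 140.1 CPM in the same order, whereas the upper quartile was 527 CPM in G1, 156.5 CPM in S and 235 CPM in G2M. Without the highest cell of each phase, the sums were 299 CPM in G1, 140.6 CPM in S and 143.6 CPM in G2M in the 1-plate experiment. With the mean of log2(CPM + 1) over cells the log2 difference was -0.08 for G2M and -0.31 for S against G1 (limma adjusted p = 0.949 and 0.748), so the calls rested on summed reads. Neither passed edgeR within the 1-plate experiment alone (-1.57, adjusted p = 0.476, and -1.65, adjusted p = 0.332) or within the 2-plate experiment alone (-0.88, adjusted p = 0.562, and -1.22, adjusted p = 0.212). Within 1 experiment the only units were its TNF and blank sums, so these p-values hold no spread between experiments.

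**Figure D4:**
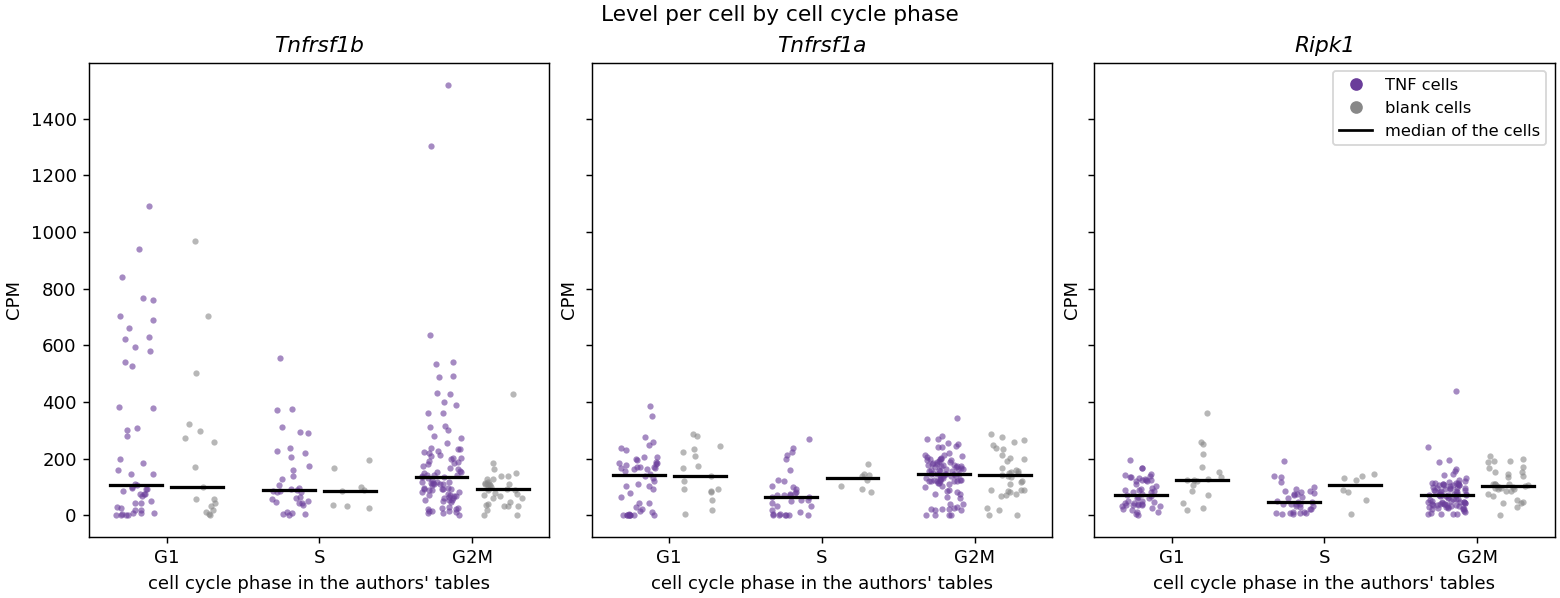
Level per cell in CPM (vertical axes, linear) of Tnfrsf1b, Tnfrsf1a and Ripk1 by the authors' cell cycle phase (horizontal axes), with cells of both experiments together; purple points are TNF cells, grey points are blank cells and black lines are medians. In TNF cells of the 2-plate experiment, the upper quartile of Tnfrsf1b was 527 CPM in G1 and 156.5 CPM in S, and the medians were 94.8 and 87.1 CPM.

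Of the oscillatory, transient and non-responsive classes, oscillatory TNF cells in G1 had the highest Tnfrsf1b sums, 712 CPM in 4 cells of the 1-plate and 383 CPM in 12 cells of the 2-plate experiment. Non-responsive blank cells in G1 had 320 CPM in 3 cells and 267 CPM in 9 cells. In the 1-plate experiment, 1 of these 3 blank cells held 94.2% of the reads, and the blank G1 sum without it was 26.8 CPM, below the 101.2 CPM of non-responsive blank cells in G2M. The oscillatory G1 sums are given with their highest cells included. Over all 12 G1 cells of the 1-plate experiment, 1 TNF cell held 34.8% of the Tnfrsf1b reads. In G2M the sums were 263 and 245 CPM in oscillatory TNF cells, against 101.2 and 78.4 CPM in non-responsive blank cells. The oscillatory sum was thus the higher in both experiments. For Birc3 the G2M sums were 139.9 and 128.04 CPM in oscillatory TNF cells, against 48.5 and 33.6 CPM in non-responsive blank cells.

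Across the 238 cells, the 10 genes varied together only weakly. Over 45 pairs, Pearson's r of log2(CPM + 1), after the plate mean was subtracted, ran from -0.02 (Ripk1 with Birc3) to 0.45 (Tnfrsf1a with Tnfrsf1b), with a median of 0.31. Cells share libraries and differ in depth, and r with the number of detected genes ran from 0.27 for Birc3 to 0.67 for Traf2. In the 210 cells with 8000 or more detected genes the median r was 0.15, while that of the receptor pair was 0.43. Among 9198 genes read in at least 50% of cells, the most similar pattern to Tnfrsf1b was that of ENSMUSG00000021939 (r = 0.64) and to Birc3 that of ENSMUSG00000036067 (r = 0.53), over 238 cells each; the files do not pair these identifiers with names.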

How the data were processed

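Single mouse GMPs were sequenced by Smart-Seq2 with Nextera libraries, per the labels' protocols. The deposited count tables hold raw whole-number counts per Ensembl gene made by the authors with SAMtools, Subread 1.5.0 and featureCounts, per the submitters' processing notes; the order of tools and the genome build, annotation and strand setting used are unknown from the sources at hand. The kit does not mark strand, so overlapping antisense reads cannot be told apart. The authors' deposited cell tables gave stimulus, response class and phase; 357 columns matching no sample were not used. Counts lacked names, and 0 identifiers matched the reference table, so other pathway genes and cell type markers are not analysed here, and the GMP label was not checked.

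Counts of 55450 genes, without 92 spike-ins, were summed per experiment and class (at least 5 cells, or 3 in fits with non-responsive TNF cells). For phase tests they were summed per experiment, stimulus and phase (at least 3 cells). edgeR 4.0.16 (R 4.3.3) fitted quasi-likelihood models with an experiment term, TMM factors and filterByExpr, with Benjamini-Hochberg adjustment over all genes at 0.05, two-sided. All 10 genes passed the filter in every comparison. The fits had 1 to 7 residual degrees of freedom. Alternatives were DESeq2 1.42.0, other factors and filters, sums per plate, left-out plates and experiments, cells with 8000 detected genes, cells thinned to 458260 reads, and limma 3.58.1 on mean log2(CPM + 1). Single cells are described by CPM with a pseudocount of 1, and shares by exact 95% intervals. The code of the fits, but not that of the summing, was run on simulated sums with known changes. No cell's column repeated another. All 10 genes are named, without selection by value; genes and lists were chosen with earlier results of these data known.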

Additional observations from a re-analysis of the deposited data

Results flagged for a closer look

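Outside the authors' cell tables, 44 wells had count columns, and 41 of them held at least 1 read of the 10 genes, which stands out because no comparison used these wells. Their total reads ran from 1805 to 1130590 with a median of 115918, and the median well had 13.5 reads of the 10 genes together. Among 20 groups of 5 cells tested, 1 for each gene in sustained TNF and in oscillatory blank cells, 0 had an outlying cell, where chance would give about 1 in 20.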

How the results depend on the processing

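No direction of a called gene reversed. Of the values for single genes under other settings, 993 stayed on the same side of the threshold with the same sign or within error, 199 moved, 31 became stronger and 17 weaker; the cause was not tested. Shares in brackets are those of all genes called under the same setting. In TNF against blank cells, where the main count of called genes was 0 of 10 (0.446%), DESeq2 called 3 (4.36%). No low-count filter (1.4%), the stricter filter (3.46%) and thinning (1.76%) called 2 each. Sums per plate (0.739%), cells with 8000 or more detected genes (0.561%) and phase as a term (1.21%) called 1, Birc3. In oscillatory TNF against non-responsive blank cells, where the main count was 2 (2.35%), spike-in factors (0.681%) and limma on cell means (0.398%) called 0. Phase as a term called 1 there (2.44%). Transient TNF against non-responsive blank cells went to 2 with DESeq2 (1.93%). It went to 1 with the stricter filter (1.24%), sums per plate (0.29%), thinning (0.759%) or phase as a term (0.343%). Oscillatory against transient TNF cells went to 1, Tnfrsf1b, with DESeq2 (3.8%), no filter (0.604%), the stricter filter (3.1%), sums per plate (0.476%) and thinning (1.62%). The joint test went to 0 with spike-in factors (0.615%), without Plate1 (0.395%), without Plate2 (0.668%), with limma (0%) and in G2M cells (0.432%). Non-responsive TNF against non-responsive blank cells went to 2 with DESeq2 (5.31%) and 1 with sums per plate (0.98%). G2M against G1 went to 0 with spike-in factors (0.742%), without Plate2 (1.01%) and with limma (1.75%). S against G1 went to 0 in these settings (0.45%, 2.26% and 1.86%). It went to 3 with DESeq2 (7.61%) and to 2 with sums per plate (5.18%). Leaving out either experiment gave 0 in both phase tests (range 0 to 0); elsewhere a left-out experiment allowed values but no test.

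Without the replicate block, the experiment term, oscillatory TNF against non-responsive blank cells and the joint test each called 0 of the 10 genes, and the phase calls of Tnfrsf1b held. Over all genes, counts of calls moved in both directions. TNF against blank cells called 69, but 0 without the experiment term, 1 without Plate1, 3 with spike-in factors, 12 in G2M cells, 298 with the stricter filter and 675 with DESeq2. Between the settings without the experiment term and with DESeq2 the count ran from 34 to 1286 for oscillatory TNF against non-responsive blank cells (390 as reported), 1 to 320 for transient TNF (22), 0 to 630 for oscillatory against transient TNF (33), 13 to 897 for non-responsive TNF against non-responsive blank (83), 0 to 328 against responding TNF (0), 11 to 1148 in the joint test (228) and 98 to 411 for G2M against G1. S against G1 called 243, but 49 without Plate1 and 963 with DESeq2. Spike-in factors moved the median log2 fold change of all genes to 0.42 in TNF against blank and -0.78 in non-responsive against responding TNF cells; relative to that median, Birc3 stood at 1.38 and Ripk1 at -0.76 in TNF against blank cells. With 2 experiments and as few as 3 cells in a sum, small differences could not be detected.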
